A study of Mus musculus with 6 samples.

Results

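The Wnt pathway is described here by 56 genes of mouse embryonic stem cells (mESCs), chosen by name as ligands, receptors, regulators and targets of Wnt signalling. All 56 are among the 54352 genes of the deposited table, and the rule that picks them there uses only the gene name. RNA was sequenced from SIRT1 KO and WT mESCs, 3 libraries of each genotype, both grown in serum-free ESGRO medium on gelatin. SIRT1 is a protein deacetylase that depends on NAD+, and the experiment asked how its loss changes gene expression in these cells. The labels give both genotypes as male cells of the 129Sv/J background, and the study's methods say that SIRT1 KO cells came from gene targeting in the R1 line. Each genotype is thus 1 line, and a difference between genotypes cannot be told apart from a difference between 2 lines.

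Wnt proteins are lipid-modified in the cell that makes them by the acyltransferase Porcn and are carried to the surface by Wls. At the receiving cell they bind a Frizzled receptor together with Lrp5 or Lrp6, which recruits Dishevelled (Dvl) and disables a complex of Axin, Apc and Gsk3b that otherwise marks β-catenin for destruction. β-catenin then acts with Tcf and Lef proteins on target genes, several of which feed back on the pathway, such as Axin2, Notum, Znrf3 and Nkd1. Mouse ESCs are held in the undifferentiated state in part through this route, where Tcf7l1 is known mainly as a repressor.

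The values are log2 normalized expression, 1 per gene and library. A fold change is the SIRT1 KO mean minus the WT mean on that scale. At low levels values hardly varied between libraries (Rspo2 was at 1.35 in each SIRT1 KO library and 1.37 in each WT library). Fold changes and spreads of low genes may thus be compressed. A gene is called lower or higher in SIRT1 KO cells where limma, fitted to the 26571 genes whose mean, taken off the log scale, reached 10, gave an adjusted p under 0.01. Sirt1 itself was at 13.71, 13.72 and 13.79 in SIRT1 KO libraries, against 15.52, 15.54 and 15.49 in WT libraries (log2 fold change -1.78, SE 0.049, adjusted p = 1.16e-07), a value over the whole gene that does not show which part was deleted. Over all tested genes, 2157 (8.12%) were called lower and 2251 (8.47%) higher, with a median log2 fold change of -0.01. With each library centred on its own median, the split was 1718 lower and 3099 higher. Fewer were called without SIRT1 KO replicate 2 (1283 lower and 1206 higher), without SIRT1 KO replicate 3 (1331 and 1202) and without WT replicate 3 (1413 and 1670). WT replicate 2 deviated most from the mean of its genotype (root mean square 0.141, against 0.0662 to 0.123 in the other 5 libraries), which touches several Wnt genes named below. The mESC genes Pou5f1 (18.47 in SIRT1 KO and 18.40 in WT cells), Nanog (17.86 and 17.71) and Esrrb (18.19 and 18.15) were near the top of the scale in both genotypes. Of the 11 mESC markers, 1 was called, Klf4, as lower. Log2 fold changes of the 11 ran from -0.34 to 0.15, and 5 were negative. SIRT1 KO libraries were all below WT libraries for 3 of them (Sox2, Klf4 and Utf1) and all above for 1 (Nanog). Of 7 markers of fibroblasts, a possible feeder cell, 3 were tested and 1 was called, Thy1, as lower (log2 fold change -0.56). Thy1 was well above the low range, at 10.30 in SIRT1 KO and 10.86 in WT cells. Col1a1 was at 6.73 to 7.03 in SIRT1 KO and 6.67 to 6.72 in WT libraries, and Dcn and Postn were listed at 0 in all 6 libraries.

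Tcf and Lef proteins bind the core CTTTGA or CTTTGT, read on either strand. The 250 bases before the RefSeq start sites (GRCm38.p6) were searched for this core, because several of the 56 genes are both parts and targets of the pathway. A promoter was at hand for 36 of the 56 genes, and 13 of them (36.1%) held at least 1 match, against 30.8% of the 27025 genes in the same table. Among the 9 called genes with a promoter, 5 held a match, and among the 27 others, 8 did. A gene with several windows, such as Lef1 or Wnt5b, had more chances of a match. By window, 13 of 45 (28.9%) held one, against 27.6% of the 32851 windows in the same table. The remaining called genes had no promoter at hand, and a difference between called and other genes was not tested. The 4 windows shown set a textbook target whose RNA was not called, Sp5, beside 2 targets that were called lower, Axin2 and Lef1; Sp5 was added after its values were seen. All 4 lie on the plus strand, and capitals mark the core in either orientation. The Sp5 window, chr2:70474673-70474922, holds 4 matches, and the Axin2 window, chr11:108920099-108920348, holds 0. Lef1 is shown at its first start site, chr3:131110047-131110296, with 0 matches, and at a start within an intron, chr3:131156044-131156293, with 3. The table holds 4 Lef1 windows, and the other 2, of which 1 overlaps the first and 1 lies inside the gene, have 0 matches. No 2 matches shown overlap.
Sp5: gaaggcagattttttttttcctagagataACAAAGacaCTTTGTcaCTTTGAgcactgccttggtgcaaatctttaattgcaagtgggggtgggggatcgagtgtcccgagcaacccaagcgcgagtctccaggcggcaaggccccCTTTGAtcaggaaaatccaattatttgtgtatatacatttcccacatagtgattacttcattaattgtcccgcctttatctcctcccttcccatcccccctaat
Axin2: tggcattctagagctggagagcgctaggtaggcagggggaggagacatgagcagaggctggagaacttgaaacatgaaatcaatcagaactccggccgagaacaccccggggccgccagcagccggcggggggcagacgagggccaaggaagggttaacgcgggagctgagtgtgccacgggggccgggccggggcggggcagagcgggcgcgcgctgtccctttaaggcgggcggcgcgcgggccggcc
Lef1 first start: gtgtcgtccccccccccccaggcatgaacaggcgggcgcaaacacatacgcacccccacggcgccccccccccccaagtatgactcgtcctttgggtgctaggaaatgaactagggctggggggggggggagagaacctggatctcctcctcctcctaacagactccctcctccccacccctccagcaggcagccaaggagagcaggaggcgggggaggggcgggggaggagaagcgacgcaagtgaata
Lef1 intronic start: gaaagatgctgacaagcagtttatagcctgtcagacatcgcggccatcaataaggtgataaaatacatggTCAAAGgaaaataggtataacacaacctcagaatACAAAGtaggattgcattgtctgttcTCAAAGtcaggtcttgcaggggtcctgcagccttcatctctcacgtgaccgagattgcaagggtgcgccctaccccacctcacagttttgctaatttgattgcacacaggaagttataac
These letters are a description of the windows, and a window without a match does not show that the gene lacks the core elsewhere. The values per gene do not say which Lef1 start was used.

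Of the 56 genes, 54 passed the filter on low values. In SIRT1 KO cells 15 of the 54 were called lower (8.12% of all tested genes were), 2 were called higher (8.47% of all tested genes were) and 37 were not called. The median log2 fold change of the 54 genes was -0.22, and 41 of the 54 had a negative value. Over all tested genes, 14059 of 26571 did. Without WT replicate 2 the counts were 18 lower and 2 higher, and the median was -0.12. For 26 genes all SIRT1 KO libraries lay below all WT libraries, and for 5 genes they lay above, where 22.9% and 21.8% of all tested genes did so. At an adjusted p under 0.05 the counts were 22 lower and 3 higher, beside 14.2% and 14.3% of all tested genes. The 2 genes outside the test were Frzb, a secreted Wnt-binding protein, at 2.68 to 2.74 in SIRT1 KO and 2.69 to 2.72 in WT libraries, and the R-spondin receptor Lgr5, at 2.66 to 2.69 in SIRT1 KO and 2.67 to 2.72 in WT libraries.

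**Figure D1:**
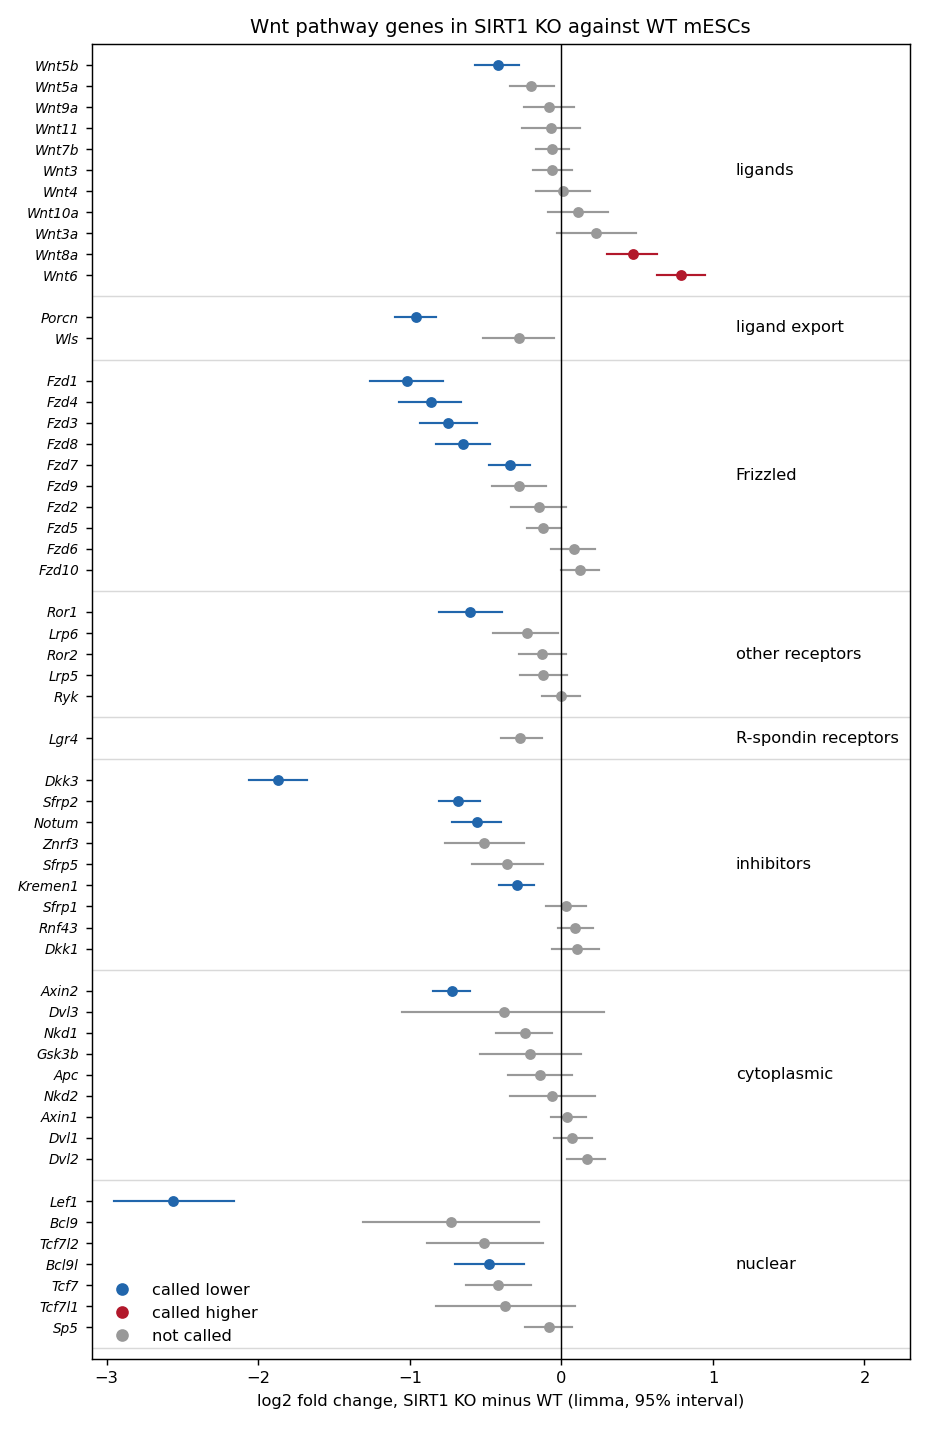
Log2 fold change (SIRT1 KO minus WT, horizontal axis) of the 54 tested Wnt pathway genes, grouped by role, with points for the limma estimate and lines for its 95% interval. The 15 genes called lower stand to the left, led by Lef1 at -2.56 and Dkk3 at -1.87, and Wnt6 at 0.79 stands farthest to the right.

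Among the 11 ligands, Wnt6 and Wnt8a were called higher in SIRT1 KO cells and Wnt5b was called lower. Over all tested genes, 8.47% were called higher and 8.12% lower. Wnt6 was at 10.17, 10.20 and 10.09 in SIRT1 KO libraries, against 9.35, 9.37 and 9.37 in WT libraries. The 2 sets were far apart relative to their spread, and the log2 fold change of 0.79 (SE 0.072, adjusted p = 7.35e-05) puts SIRT1 KO cells at 173% of WT. Wnt8a, a ligand known from the early embryo, was at 7.84 to 7.91 in SIRT1 KO and 7.36 to 7.47 in WT libraries, which gives 0.47 as the log2 fold change (SE 0.073, adjusted p = 0.0016). This call was lost without SIRT1 KO replicate 3 (adjusted p = 0.0102). Wnt5b, known mainly for signalling without β-catenin, was the most abundant ligand and was at 11.33 to 11.39 in SIRT1 KO and 11.72 to 11.82 in WT libraries (log2 fold change -0.42, SE 0.062, adjusted p = 0.00108). Thus 1 of the 2 most abundant ligands was higher and the other lower.

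The other 8 ligands were not called, with log2 fold changes between -0.20 and 0.23. Wnt10a lies next to Wnt6 on chromosome 1 and had a log2 fold change of 0.11 with a 95% interval of -0.09 to 0.31. Wnt3a, the ligand most used to activate the β-catenin route in culture, was at 8.65, 8.73 and 8.82 in SIRT1 KO libraries, against 8.37, 8.38 and 8.75 in WT libraries. Its groups overlapped, with an interval of -0.03 to 0.49 for the log2 fold change. Wnt5a was the ligand of lowest level per length, at 2.19 in SIRT1 KO and 2.38 in WT cells on the log2 scale per kb of exon. Wnt7b was close, at 2.39 in SIRT1 KO and 2.45 in WT cells. Their order rests on exon length, because without it Wnt7b was the lower (4.69 in SIRT1 KO and 4.75 in WT cells, with Wnt5a at 5.15 and 5.35).

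The 2 genes of ligand export differed in level and in call. Porcn, at 13.31, 13.32 and 13.23 in SIRT1 KO libraries and 14.29, 14.16 and 14.30 in WT libraries, was called lower. All 3 SIRT1 KO libraries were below every WT library, at 51.3% of the WT level (log2 fold change -0.96, SE 0.059, adjusted p = 9.28e-06). The gene lies on the X chromosome at 8193848 to 8206525 on the minus strand. Its 75 tested neighbours within 2.5 Mb included 11 called lower and 13 called higher. Wls was at 8.29 to 8.55 in SIRT1 KO and 8.54 to 8.82 in WT libraries, a log2 fold change of -0.28 with an interval of -0.52 to -0.05, and was not called (adjusted p = 0.0726). Per kb of exon, Porcn stood at 11.70 in SIRT1 KO and 12.67 in WT cells and Wls at 5.27 in SIRT1 KO and 5.55 in WT cells.

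Of the 10 Frizzled receptors, 5 were called lower and 0 higher, beside 8.12% and 8.47% of all tested genes. Their median log2 fold change was -0.31. Fzd1 was at 8.15, 7.89 and 7.77 in SIRT1 KO libraries, against 8.93, 8.94 and 9.01 in WT libraries. The spread was wider among SIRT1 KO libraries, and the groups did not overlap (log2 fold change -1.02, SE 0.11, adjusted p = 0.000151). Fzd4 was at 10.52, 10.47 and 10.55 in SIRT1 KO libraries, against 11.28, 11.56 and 11.29 in WT libraries. It fell to 55.0% of the WT level (log2 fold change -0.86, SE 0.089, adjusted p = 0.000149). Fzd3, a receptor known for axon guidance and planar polarity, was at 10.80, 10.89 and 10.94 in SIRT1 KO libraries, against 11.53, 11.76 and 11.57 in WT libraries (log2 fold change -0.75, SE 0.082). Fzd8 was at 9.55, 9.53 and 9.56 in SIRT1 KO libraries, against 10.20, 10.10 and 10.31 in WT libraries (log2 fold change -0.65, SE 0.079).

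The most abundant receptors showed smaller values. Fzd7, the Frizzled receptor studied most in ESCs, was called lower at -0.34 (log2 fold change, SE 0.057, adjusted p = 0.00222), and this call was lost without SIRT1 KO replicate 1, without SIRT1 KO replicate 2 or without WT replicate 3 (highest adjusted p = 0.018). Fzd5 had the highest level per length of the 10, at 13.46 in SIRT1 KO and 13.58 in WT cells per kb of exon, and a log2 fold change of -0.12 (interval -0.23 to 0.00). Fzd10 followed at 13.07 in SIRT1 KO and 12.94 in WT cells, with a log2 fold change of 0.12. Fzd1, the receptor that fell most, had the lowest level of the family, at 5.87 in SIRT1 KO and 6.89 in WT cells per kb. Fzd2, Fzd6 and Fzd9 were not called, with log2 fold changes of -0.15, 0.08 and -0.28.

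Among the 5 other receptors, Ror1, a tyrosine kinase-like receptor for Wnt5a, was called lower. It was at 7.59, 7.72 and 7.61 in SIRT1 KO libraries, against 8.28, 8.36 and 8.09 in WT libraries (log2 fold change -0.60, SE 0.092, adjusted p = 0.00143). The co-receptors of the β-catenin route were not called, Lrp5 at a log2 fold change of -0.12 (interval -0.27 to 0.04) and Lrp6 at -0.23 (interval -0.45 to -0.02). Lrp6 was at 15.34 in WT replicate 2, against 14.93 and 15.04 in WT replicates 1 and 3, and without WT replicate 2 its log2 fold change was -0.11. Ror2 had a log2 fold change of -0.13, and Ryk, the most abundant of the 5 per length, was at 14.66 to 14.73 in SIRT1 KO and 14.62 to 14.77 in WT libraries. Of the R-spondin receptors, Lgr4 was at 14.68 to 14.70 in SIRT1 KO and 14.87 to 15.07 in WT libraries, and its adjusted p of 0.0101 (log2 fold change -0.27) missed the threshold, with 0.00316 without WT replicate 2.

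**Figure D2:**
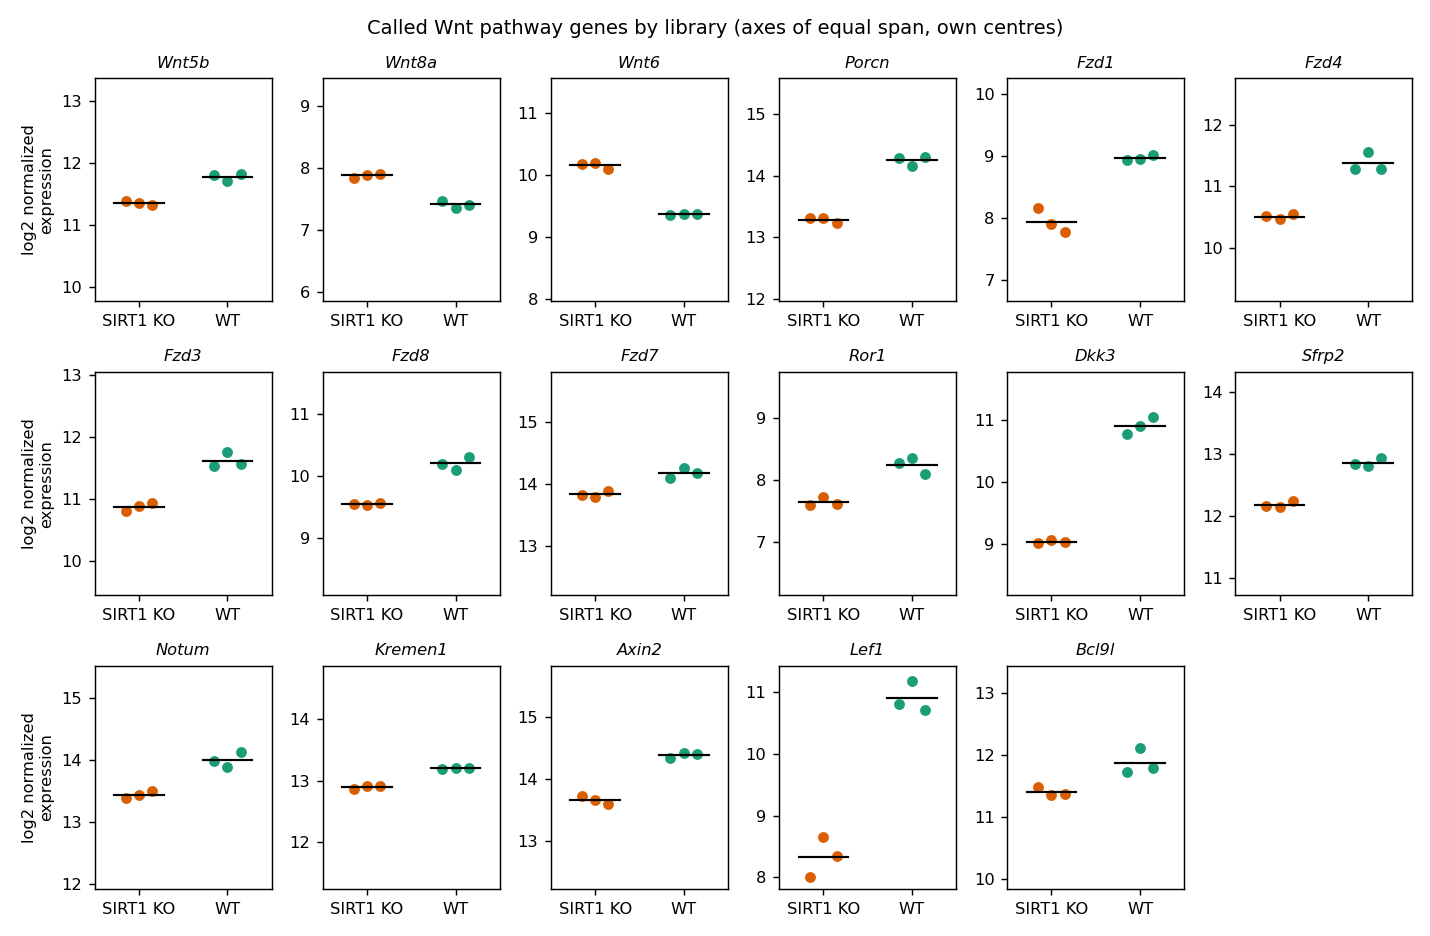
Log2 normalized expression (vertical axis) of each called Wnt pathway gene in the 3 SIRT1 KO libraries (left) and the 3 WT libraries (right) of each panel, with points for libraries and a line for the mean; all vertical axes have the same span. The 17 genes were chosen by calls made from these same values, so the lack of overlap in each panel is no separate result. The gap is widest for Lef1 and Dkk3.

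Secreted and surface inhibitors were also lower or not called. Of 9 tested, 4 were called lower and 0 higher, beside 8.12% and 8.47% of all tested genes. Their median log2 fold change was -0.36. Dkk3, a divergent member of the Dickkopf family, was at 9.01, 9.06 and 9.03 in SIRT1 KO libraries, against 10.77, 10.90 and 11.04 in WT libraries. It was at 27.3% of the WT level (log2 fold change -1.87, SE 0.086, adjusted p = 2.2e-06), and the adjusted p was at most 6.83e-05 when any 1 library was left out. The gene lies on chromosome 7 at 112116017 to 112159057 on the minus strand, where its 58 tested neighbours had a median log2 fold change of -0.01. Dkk1, the classical Dickkopf inhibitor of Lrp6, was low in both genotypes, at 6.14 to 6.35 in SIRT1 KO and 6.10 to 6.17 in WT libraries, and was not called.

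Sfrp2, which binds Wnt proteins outside the cell, was at 12.16, 12.14 and 12.23 in SIRT1 KO libraries, against 12.83, 12.81 and 12.93 in WT libraries (log2 fold change -0.68, SE 0.060, adjusted p = 6.04e-05). Its relative Sfrp1 was more abundant per length and had a log2 fold change of 0.03 with an interval of -0.10 to 0.16. Sfrp5 had a log2 fold change of -0.36 and was not called (adjusted p = 0.0302). The members of this family thus gave unlike values, and the difference between them was not tested.

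Notum, the esterase that removes the lipid from Wnt proteins, had the highest level per length of the inhibitors in WT cells (12.73, with Sfrp1 at 12.52), whereas in SIRT1 KO cells Sfrp1 was higher (12.55, with Notum at 12.17). It was at 13.38, 13.43 and 13.50 in SIRT1 KO libraries, against 13.98, 13.88 and 14.13 in WT libraries (log2 fold change -0.56, SE 0.071, adjusted p = 0.000489). The antisense gene Notumos overlaps 29.4% of the exon length of Notum and was itself called lower (log2 fold change -0.53, adjusted p = 0.00103). The strand setting of the counting was not found in the sources used here, so reads of the 2 genes cannot be told apart with certainty. Kremen1, a surface partner of Dickkopf proteins, was called lower at -0.29 (SE 0.050, adjusted p = 0.00247), and this call was lost with median centring and in 4 of the 6 fits that left out a library (without any 1 of the SIRT1 KO libraries or without WT replicate 3, highest adjusted p = 0.0154).

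The ubiquitin ligases Znrf3 and Rnf43, which clear Frizzled receptors from the surface, were not called. Znrf3, a target of the pathway, was at 12.80 to 12.94 in SIRT1 KO libraries, against 13.18, 13.67 and 13.31 in WT libraries, which is -0.51 as a log2 fold change (adjusted p = 0.0105). With the replicate number as a block it was called lower (adjusted p = 0.00536), as it was without WT replicate 2 (log2 fold change -0.36, adjusted p = 0.00152). Rnf43 was near the lower end of the tested range, at 5.18 to 5.34 in SIRT1 KO and 5.14 to 5.18 in WT libraries.

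In the cytoplasm, 1 of 9 genes was called, as lower, which is near the share of 8.12% over all tested genes. Axin2, a scaffold of the destruction complex and a widely used target of the β-catenin route, was at 13.73, 13.66 and 13.60 in SIRT1 KO libraries, against 14.34, 14.42 and 14.40 in WT libraries. The libraries of each genotype lay close together, and Axin2 was at 60.6% of the WT level in SIRT1 KO cells (log2 fold change -0.72, SE 0.055, adjusted p = 2.73e-05). It lies on chromosome 11 at 108920349 to 108950783 on the plus strand, directly after the window printed for it. Its relative Axin1, which is not a feedback target, had the highest level per length of all 56 genes, at 13.69 in SIRT1 KO and 13.65 in WT cells per kb. The log2 fold change of Axin1 was 0.04 with an interval of -0.07 to 0.16.

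The other cytoplasmic genes were not called. Dvl1 and Dvl2, which relay the signal from Frizzled, had log2 fold changes of 0.07 and 0.17, and the adjusted p of Dvl2 was 0.0496. Dvl3 was at 11.94 to 12.22 in SIRT1 KO libraries, against 11.94, 13.25 and 12.09 in WT libraries. Its log2 fold change of -0.38 rested on WT replicate 2 and was 0.03 without it. Gsk3b, the kinase of the destruction complex, showed the same form, with 14.42 in WT replicate 2 and 13.74 to 13.88 in the SIRT1 KO libraries, against 13.82 and 13.79 in WT replicates 1 and 3. Apc had a log2 fold change of -0.14, and -0.02 without WT replicate 2. Nkd1, a Dishevelled-binding feedback inhibitor, was at 8.52 to 8.68 in SIRT1 KO and 8.86 to 8.88 in WT libraries (log2 fold change -0.24, adjusted p = 0.0488), and Nkd2, the lowest of the cytoplasmic genes per length, had -0.06.

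All 7 nuclear genes had negative log2 fold changes, as 14059 of the 26571 tested genes did. Their median was -0.48, and 2 were called lower, beside 8.12% of all tested genes. WT replicate 2 was more than 0.3 above both other WT libraries in Lef1, Tcf7l1, Tcf7l2, Bcl9 and Bcl9l. Without it, the values other than that of Lef1 lay between -0.38 (Bcl9) and -0.11 (Tcf7l1 and Sp5). Lef1 was at 8.01, 8.66 and 8.34 in SIRT1 KO libraries, against 10.80, 11.17 and 10.71 in WT libraries. The highest SIRT1 KO library was well below the lowest WT library, and the mean was at 17.0% of WT (log2 fold change -2.56, SE 0.17, adjusted p = 1.51e-05). The adjusted p stayed at or below 0.000267 when any 1 library was left out, and without WT replicate 2 the log2 fold change was -2.42. Lef1 lies on chromosome 3 at 131110471 to 131224356 on the plus strand, and its 49 tested neighbours had a median log2 fold change of -0.01. An antisense gene, Gm43352, overlaps 13.7% of its exon length and was called lower from a low level (5.52 in SIRT1 KO and 5.90 in WT cells).

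The 3 other genes of the same family were not called. Tcf7, the family member of highest level per length, was at 13.47, 13.31 and 13.23 in SIRT1 KO libraries, against 13.64, 13.95 and 13.67 in WT libraries (log2 fold change -0.42, adjusted p = 0.0103). With the replicate block the adjusted p of Tcf7 was 0.00868, and without WT replicate 2 it was 0.0053 with a log2 fold change of -0.32. Tcf7l1 was at 11.19, 10.96 and 10.80 in SIRT1 KO libraries, against 11.14, 11.87 and 11.04 in WT libraries. These groups overlapped, and the log2 fold change of -0.37 was -0.11 without WT replicate 2. Tcf7l2 was at 9.17, 8.66 and 8.69 in SIRT1 KO libraries, against 9.24, 9.66 and 9.16 in WT libraries (log2 fold change -0.51, adjusted p = 0.0528). Per kb of exon in WT cells, Tcf7 stood at 12.36, Tcf7l1 at 9.38, Lef1 at 7.76 and Tcf7l2 at 6.22, and in SIRT1 KO cells Lef1, at 5.20, was the lowest of the 4.

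Bcl9 and Bcl9l link β-catenin to the transcription machinery. Bcl9l was called lower at -0.48 (log2 fold change, SE 0.10, adjusted p = 0.00787), the weakest of the 17 calls, and it was lost in 8 of 14 alternatives, among them the fits without any 1 of the SIRT1 KO libraries and without WT replicate 3 (highest adjusted p = 0.0384). Bcl9 had a larger value of -0.73 that was not called (adjusted p = 0.0634). It was at 13.08 in WT replicate 2, against 12.01 and 12.05 in WT replicates 1 and 3, and the log2 fold change without that library was -0.38. Sp5, the target with 4 core matches in the window shown, was at 10.60, 10.65 and 10.65 in SIRT1 KO libraries, against 10.69, 10.66 and 10.79 in WT libraries, and the interval of its log2 fold change was -0.24 to 0.07.

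WT replicate 2 was more than 0.3 above both other WT libraries in 9 of the 54 tested genes (16.7%), against 4.37% of all tested genes. These were Znrf3, Dvl3, Apc, Gsk3b, Lef1, Tcf7l1, Tcf7l2, Bcl9 and Bcl9l. Of these, Lef1 and Bcl9l were called with all libraries and also without that one, Znrf3 was called only without it in this pair of fits, and the other 6 were called in neither.

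**Figure D3:**
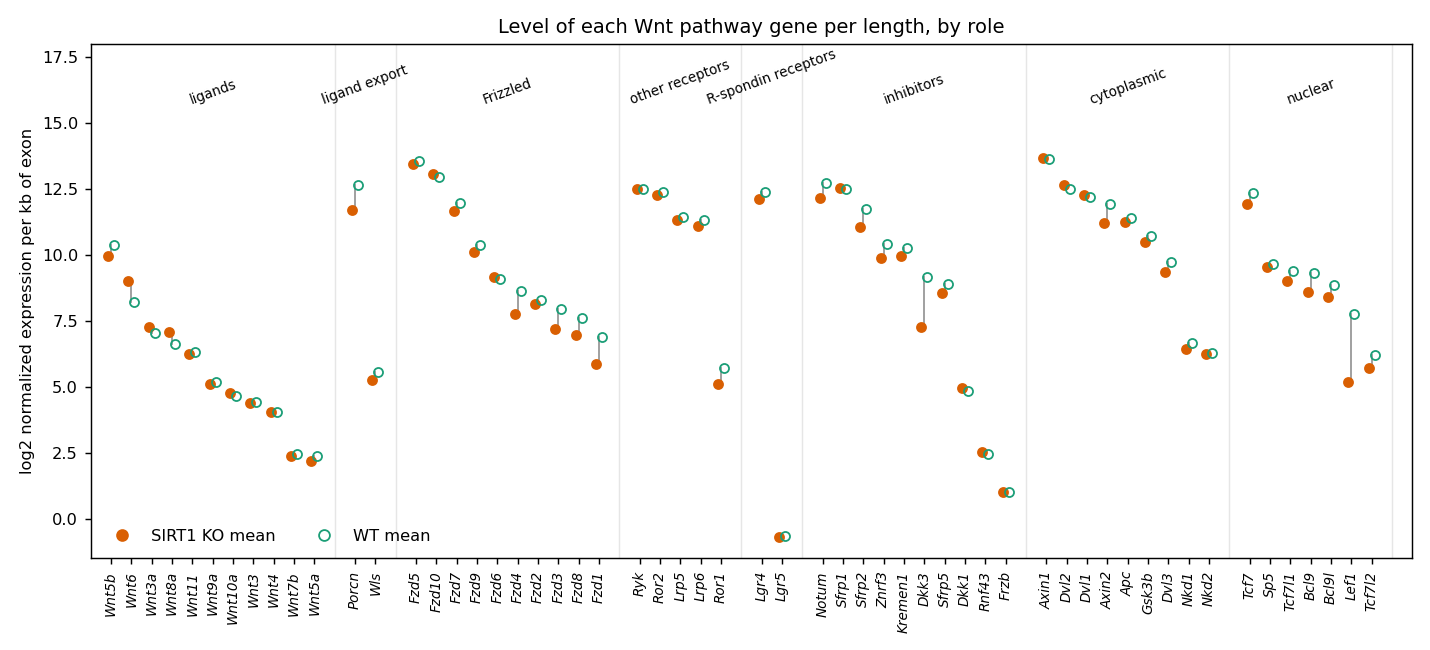
Mean log2 normalized expression per kb of exon (vertical axis) of the 56 Wnt pathway genes in SIRT1 KO cells (filled, left) and WT cells (open, right), ordered within each role by the WT level. Axin1 and Fzd5 are the highest in WT cells, at 13.65 and 13.58, most ligands lie below the receptors, and Lef1 and Dkk3 show the widest gaps between genotypes.

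By role, the receptors and co-receptors together had 6 of 15 genes called lower, the inhibitors 4 of 9, the nuclear genes 2 of 7, ligand export 1 of 2, the cytoplasmic genes 1 of 9 and the ligands 1 of 11, where 8.12% of all tested genes were. The counts of the cytoplasmic genes and of the ligands are near that share. Both genes called higher were ligands. Genes that promote signalling (Fzd1, Fzd4, Porcn, Lef1) and genes that restrain it (Sfrp2, Notum, Axin2) were thus both among those called lower. Whether the roles differ from each other was not tested.

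The surroundings of the genes on their chromosomes were measured because neighbouring genes can change together. For 16 of the 17 called genes the median log2 fold change of the tested genes within 2.5 Mb lay between -0.09 and 0.03, and for Wnt6 it was 0.09. Around Wnt6, 14 of 68 neighbours were called higher, and around Fzd3, with the median of -0.09, 12 of 53 were called lower. Tcf7l1 differed, because its 72 tested neighbours on chromosome 6 had a median of -0.33, with 31 called lower and 1 called higher. Its own log2 fold change of -0.37 was not called, and it was -0.11 without WT replicate 2.

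**Figure D4:**
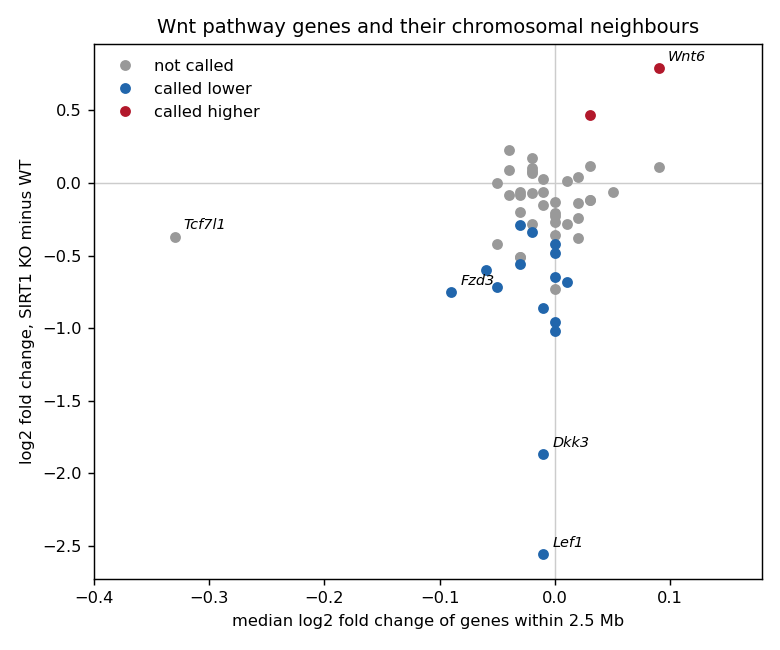
Log2 fold change (SIRT1 KO minus WT) of each of the 54 tested Wnt pathway genes (vertical axis) against the median log2 fold change of the tested genes within 2.5 Mb (horizontal axis), coloured by call. The called genes stand at neighbour medians between -0.09 and 0.09, and Tcf7l1 stands apart at -0.33.

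A wider list of 106 other genes of the pathway was read from the same fit, of which 105 are in the table and 93 were tested. In SIRT1 KO cells 17 of the 93 were called lower (8.12% of all tested genes were) and 7 higher (8.47% of all tested genes were), with a median log2 fold change of -0.06. The 7 called higher are near the share over all genes. The counts changed with single libraries: 11, 9 and 8 were lower without SIRT1 KO replicates 1, 2 and 3, 11 were lower without WT replicate 3 or with median centring, and 11 were higher without WT replicate 2. Ctnnb1, which encodes β-catenin, was called higher, at 18.25, 18.28 and 18.32 in SIRT1 KO libraries, against 17.79, 17.72 and 17.82 in WT libraries (log2 fold change 0.51, SE 0.051, adjusted p = 0.000137). It was thus at 142% of WT in cells where Lef1 and Axin2 were lower. Of the 106 tested neighbours of Ctnnb1 on chromosome 9, 37 were called higher and 2 lower, with a median of 0.14. Ulk4, which lies on the opposite strand and overlaps 14.6% of the exon length of Ctnnb1, was also called higher (log2 fold change 0.40, adjusted p = 0.00654).

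Of 21 other cytoplasmic genes, 4 were called lower and 2 higher, beside 8.12% and 8.47% of all tested genes. The same shares apply to the lists that follow, and in lists this short counts of 1 or 2 lie near them. Frat1, which binds Gsk3 and keeps it from β-catenin, had a log2 fold change of -0.84 (11.21 to 11.34 in SIRT1 KO and 11.97 to 12.22 in WT libraries), and Amer1, a scaffold of the destruction complex, had 0.73 (13.18 to 13.31 in SIRT1 KO and 12.40 to 12.76 in WT libraries). Of 12 other secreted or surface regulators, 4 were called lower and 0 higher, led by Shisa2 at -0.90, Gpc3 at -0.83 and Sfrp4 at -0.82. Most of this list are inhibitors, but it also holds the R-spondin receptor Lgr6 and the glypicans Gpc3 and Gpc4. Of 16 other nuclear genes, 2 were called, the Groucho-type co-repressors Tle2 at -0.82 and Tle1 at -0.39. Of 7 other ligands or agonists, 1 was called, Rspo3, at -0.17 from a low level (4.35 in SIRT1 KO and 4.53 in WT cells), and this call was lost in each fit that left out a library except that without WT replicate 3. The 15 genes of planar cell polarity, a branch of Wnt signalling that orients cells without β-catenin, had 2 called lower and 3 higher, among them Vangl2 at -0.50, Invs at 0.55 and Prickle1 at 0.55. The call of Vangl2 was lost without any 1 of the SIRT1 KO libraries, and that of Prickle1 was lost without SIRT1 KO replicate 2.

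Targets outside the 56 genes did not move one way: of 15 tested, 3 were called lower and 2 higher. Over all tested genes 8.12% were called lower and 8.47% higher, and the 2 called higher are near that share. Ccnd1, the cell-cycle gene of cyclin D1, was at 14.97, 15.04 and 14.99 in SIRT1 KO libraries, against 15.74, 15.58 and 15.75 in WT libraries (log2 fold change -0.69, SE 0.060). Sp8, a relative of Sp5, had -0.94 from a lower level (6.69 in SIRT1 KO and 7.63 in WT cells). Eomes, a T-box gene of the primitive streak, was higher at 0.48, and 28 of its 66 tested neighbours on chromosome 9 were also called higher. Of the 7 ESC genes known to be repressed by Tcf7l1, 1 was called, Klf4, at -0.34, and this call was lost with median centring and without SIRT1 KO replicate 2, SIRT1 KO replicate 3 or WT replicate 3.

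Some markers of states near that of ESCs differed between the genotypes, where 8.12% of all tested genes were called lower and 8.47% higher. In the list for primed epiblast, 2 of 6 genes were called lower, Sox3 at -2.01 and Otx2 at -1.42, and 1 was called higher, Dnmt3b at 0.61, with the median level of the list at 9.15 to 9.34 in SIRT1 KO and 10.32 to 10.41 in WT libraries. The median log2 fold change of these 6 genes was -0.06, with 3 of the 6 negative. In the list for primitive endoderm, 3 of 7 were called lower and 1 higher, Sox7 at 0.96, with median levels of 6.94 to 7.09 in SIRT1 KO and 7.57 to 7.72 in WT libraries and a median log2 fold change of -0.14 (range -0.67 to 0.96). In the list for neuroectoderm, with 5 genes tested, Sox1 was lower at -0.62, Nes was higher at 0.87 and 3 were not called. In the list for primitive streak and mesoderm, 1 of 7 was called lower and 1 higher. In the list for trophoblast, 0 of the 4 tested genes were called. The part of such cells in the Wnt values was not tested, and in bulk RNA fewer cells of a type and less RNA per cell cannot be told apart.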

How the data were processed

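RNA was sequenced on the NovaSeq platform. The study's methods describe total RNA prepared with a TruSeq Stranded/Ribo kit, but the labels state poly(A) enrichment. The authors trimmed reads with Trim Galore, aligned them with STAR to GRCm38 (annotation Gencode vM18), obtained gene counts from featureCounts and scaled these between libraries in DESeq2, and the submitters' processing notes name mm10. The deposited values are log2 normalized expression, and their transformation and the strand setting of the counting are not given in the sources used here. The values hold no read depth, so no counting interval could be given. The study describes cultures in triplicate and calls them biological replicates, each genotype being 1 line, so p-values measure only the spread between these libraries.

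Genotypes were compared in R 4.3.3 with limma 3.58.1 (empirical Bayes moderation with a mean-variance trend) over the 26571 of 54352 genes whose mean, taken off the log scale, reached 10, with Benjamini-Hochberg adjustment over all of them and a threshold of 0.01. The step was tested on simulated data. Exon lengths, positions and overlaps came from GENCODE vM21 on GRCm38, where 98.69% of gene names matched 1 gene. A level per kb is the log2 value minus log2 of the exon length. The members and gene lists were chosen with earlier results of these data known. Named genes are the called members, the members of highest and lowest WT level in each role, those whose call changed without 1 library, Sirt1, Ctnnb1, and up to 3 called genes of smallest adjusted p in each list of other pathway genes. Other members and markers are named for context. Deviations from the genotype mean correlated between libraries of the same number (0.242, 0.149 and 0.316) and at most at 0.0838 between others. The labels do not say what a number stands for, and the main fit did not pair the libraries. A fit with the number as a block was an alternative. The others were no filter, a filter at a mean of 100, quantile normalization, median centring, a pseudocount of 10, no trend, robust moderation, a threshold of 0.05, and leaving out each library in turn.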

Additional observations from a re-analysis of the deposited data

How the results depend on the processing

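Among 81 genes followed through the alternatives, no called gene changed direction. The 81 are the 54 tested Wnt genes, Ctnnb1, up to 3 called genes of each list of other pathway genes, and the called markers. Of their 1206 values, 1136 kept their direction and side of the threshold, 37 lost the call, 21 gained it and 12 turned their sign. These 12 belong to 7 Wnt genes that were not called, with no call under the alternative either: quantile normalization turned Wnt11 to 0.01, Sfrp1 to -0.00, Nkd2 to 0.02 and Axin1 to -0.01, and median centring turned Ryk to 0.05. Without 1 library, Wnt4 ranged from -0.05 to 0.06, Ryk from -0.04 to 0.04, Nkd2 from -0.18 to 0.04 and Dvl3 from -0.63 to 0.03. The 15 Wnt genes called lower were 14 with no filter, 13 with median centring, 17 with the replicate block and 12 to 18 without 1 library, and the 2 called higher were 1 to 2 without 1 library (1 without SIRT1 KO replicate 3). With the replicate block, Znrf3 and Tcf7 were gained among these genes, Csnk1g1, Csnk1g3 and Fuz were lost among the other pathway genes, and no other call of a gene on these lists changed. Over all genes the block gave 2079 lower and 2041 higher. Leaving out 1 library gave 1283 to 2669 genes lower (1283, 1331 and 1413 without SIRT1 KO replicate 2, SIRT1 KO replicate 3 and WT replicate 3) and 1202 to 2794 higher (1206 and 1202 without SIRT1 KO replicates 2 and 3), and a threshold of 0.05 gave 3762 lower and 3804 higher. Of the other pathway genes, 17 were called lower; 11 were with median centring, 27 at a threshold of 0.05 and 8 to 21 without 1 library (11, 9 and 8 without SIRT1 KO replicates 1, 2 and 3 and 11 without WT replicate 3). The 7 called higher were 14 at that threshold and 5 to 11 without 1 library (11 without WT replicate 2). Fewer libraries were fitted in these cases, and the cause of each change was not tested. Levels per kb with the longest transcript as the length moved by more than the spread between replicates for 28 of the 56 genes. Groups of 3 libraries per genotype, 1 line each, limit all values.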
